A study of Mus musculus with 14 samples.

Results

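Genes of the machinery by which cells recognise and take up dying cells, debris and synapses are described here across sorted astrocytes, other sorted cells and whole tissue of the mouse cortex. They were taken by symbol, 10 of the 32830 genes listed: the engulfment receptor Megf10, the TAM receptor tyrosine kinases Mertk, Axl and Tyro3, the bridging molecules Gas6, Pros1 and Mfge8, the adaptor Gulp1, and the integrin subunits Itgav and Itgb5. All 10 passed the filter on low values. The rule took them by symbol and used no measured value, but earlier results of these data were known when they were chosen.

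The study asked how astrocytes of the upper cortical layers differ from those of the deep layers. Mice of the SW strain carrying the Aldh1l1-GFP reporter, which puts green fluorescent protein in astrocytes under the promoter of the folate enzyme gene Aldh1l1, were used on postnatal day 14. Upper and deep layers were separated by dissection, and each gave sorted GFP-positive cells (astrocytes), sorted GFP-negative cells (non-astrocytes) and whole layer tissue that was not dissociated (bulk tissue). Astrocytes gave 3 libraries per layer, and non-astrocytes and bulk tissue gave 2 per layer each, 14 libraries in all. All 14 came from mice of that reporter strain and age, and no treatment or further allele is given. Nothing in the labels ties the libraries of a group to different animals, so p-values reflect the spread over these libraries alone, and that spread may be technical. For the upper layer astrocytes and non-astrocytes 1 label field names bulk tissue, against the titles, and the titles were followed.

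A phagocyte binds a dying cell or a tagged synapse through lipids that have turned outwards, chiefly phosphatidylserine. Some receptors bind it directly, while the TAM receptors need the soluble bridging proteins Gas6 or Protein S, and the integrin of alpha V and beta 5 needs Mfge8. In the postnatal brain, astrocytes are known to engulf synapses through Megf10 and Mertk, and microglia are the professional phagocytes.

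Levels are given as normalised read counts, which are reads per gene divided by a size factor for each library, so they compare 1 gene between libraries and not different genes. Each library held 18226457 to 30316765 reads in genes. Differences are log2 ratios of the group named first to the other from limma, fitted on log2 of the value plus 1 over 22575 genes, and a gene was called at a Benjamini-Hochberg adjusted p below 0.05. Beside each call, the share of all tested genes called in that comparison is given as its background.

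The sorted fractions carried the markers of their labels. The summed counts of 6 astrocyte markers ran from 262550 to 381736 in astrocytes, against 8058 to 9734 in non-astrocytes and 40031 to 46452 in bulk tissue. The summed counts of 6 microglial markers ran from 944 to 2481 in astrocytes, against 123452 to 178325 in non-astrocytes and 5714 to 6806 in bulk tissue. For 5 mural cell markers they ran from 3472 to 7383 in astrocytes, against 204184 to 279772 in non-astrocytes and 7607 to 9945 in bulk tissue, and for 6 endothelial markers from 552 to 1003 in astrocytes, against 27158 to 39273 in non-astrocytes and 3327 to 4209 in bulk tissue. Oligodendrocyte markers (5 genes) summed to 3543 to 5729.8 in astrocytes, against 50294 to 136358 in non-astrocytes and 33304 to 130785 in bulk tissue. Sums for 4 oligodendrocyte precursor markers were 254 to 861 in astrocytes, against 23918 to 53362 in non-astrocytes and 3118 to 5051 in bulk tissue, and for 3 blood markers 56.7 to 205 in astrocytes, against 4157 to 16621 in non-astrocytes and 262 to 1679 in bulk tissue. The non-astrocyte fraction thus held RNA of microglia, vessel cells, the oligodendrocyte lineage and blood, while 6 neuronal markers summed to 258 to 379 in astrocytes and 3281 to 8160 in non-astrocytes, against 98328 to 130731 in bulk tissue. No marker was at 0 in every library of a fraction, and the part of these cell types in any result below was not tested. Deep layer astrocyte replicate 2 stood apart: its chi-square per degree of freedom against the other deep layer astrocyte libraries was 114.5 and 127, where the 8 other replicate pairs gave 10.2 to 56.8. Results that rest on it are given with and without it.

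**Figure D1:**
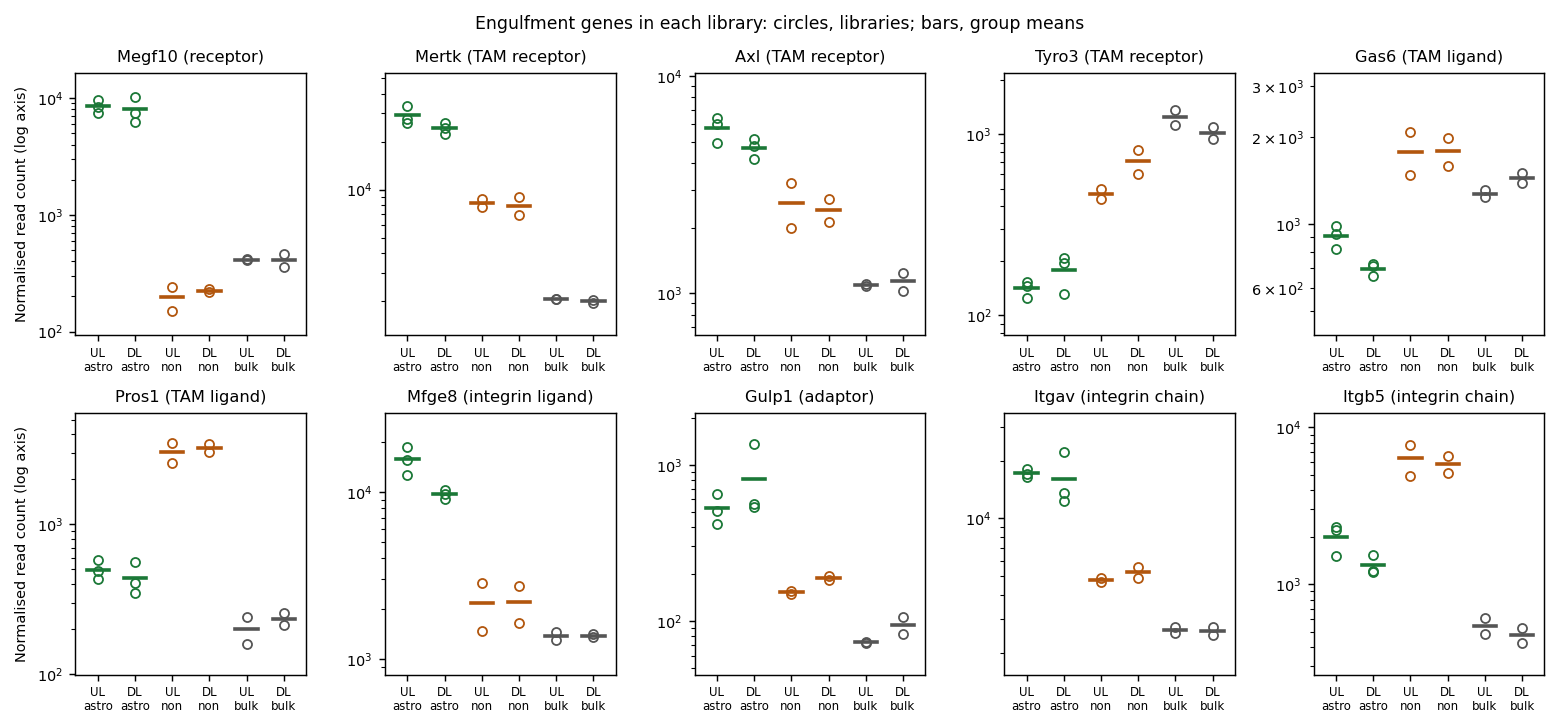
Normalised read counts (log10 axis) of the 10 genes in each of the 14 libraries (circles) with group means (bars), for astrocytes, non-astrocytes and bulk tissue from left to right, each as upper layers (UL) and then deep layers (DL). Megf10 stood at 6299 or more in every astrocyte library and at 465 or less in every other library, whereas Tyro3 stood at 206 or less in every astrocyte library and at 441 or more elsewhere.

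The receptors divided in direction. Megf10, Mertk and Axl rose in astrocytes and Tyro3 fell, against non-astrocytes and against bulk tissue alike. Among all 10 genes, astrocytes had 6 called higher and 4 lower than non-astrocytes, where 29.6% of all tested genes were called higher and 36.8% lower (66.3% in all). Against bulk tissue, astrocytes had 8 called higher and 2 lower, where 28.8% of tested genes were higher and 36.1% lower (64.8% in all). With so large a share of genes called, the sizes and the order of the levels say more than the calls. The median log2 difference of the 10 genes was 1.39 against non-astrocytes and 2.43 against bulk tissue, where the medians of all tested genes were -0.08 and -0.10. In each of these calls no astrocyte library overlapped any library of the other side, which held for 21.7% of tested genes in the higher and 30.1% in the lower direction against non-astrocytes, and for 23.2% and 29.9% against bulk tissue.

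Megf10 (ENSMUSG00000024593; chromosome 18, 57133090 to 57297467, plus strand; GRCm38), a transmembrane receptor with many EGF-like repeats, the mammalian relative of the worm receptor CED-1 and the fly receptor Draper, had the widest gap between fractions. Its normalised read counts were 7512, 9669.8 and 8386 in upper and 6299, 10204 and 7471 in deep layer astrocytes. They were 149 and 243 in upper and 231 and 219 in deep layer non-astrocytes, and 415 and 409.7 in upper and 465 and 358 in deep layer bulk tissue. Every astrocyte library lay far above the rest, and every non-astrocyte library lay below every bulk library. Megf10 averaged 8257 ± 1470.4 in astrocytes (SD, n = 6), against 210.5 ± 42.2 in non-astrocytes and 412 ± 44.0 in bulk tissue (SD, n = 4 each). That is 39.2-fold higher than in non-astrocytes (log2 5.29, SE 0.163; limma adjusted p = 6.1e-13) and 19.8-fold higher than in bulk tissue (log2 4.31, SE 0.163; limma adjusted p = 4.39e-12). Without deep layer astrocyte replicate 2, its highest library, the log2 difference from non-astrocytes was 5.20.

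Mertk (ENSMUSG00000014361; chromosome 2, 128698956 to 128802894, plus strand), the TAM receptor best known for clearing apoptotic cells and photoreceptor debris, was the most abundant of the 10 genes in astrocytes once divided by exon length. Its counts were 26233, 33513 and 27884 in upper and 26048, 24251 and 22227 in deep layer astrocytes. They were 8781 and 7801 in upper and 8973 and 6909 in deep layer non-astrocytes, and 2048 and 2065 in upper and 2030.1 and 1953 in deep layer bulk tissue. The 3 fractions formed 3 separate ranges, with bulk tissue lowest. Mertk averaged 26692 ± 3859 in astrocytes (SD, n = 6), against 8116 ± 954 in non-astrocytes and 2024 ± 49.5 in bulk tissue (SD, n = 4 each). It was 3.28-fold higher in astrocytes than in non-astrocytes (log2 1.71, SE 0.116; limma adjusted p = 3.7e-09) and 13.1-fold higher than in bulk tissue (log2 3.71, SE 0.116; limma adjusted p = 5.87e-13).

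Axl (ENSMUSG00000002602; chromosome 7, 25757273 to 25788705, minus strand), a TAM receptor that binds Gas6 and is known for its induction in inflamed tissue, followed the same order at a lower level. Its counts were 4928, 6452 and 5999 in upper and 4154, 5123 and 4758 in deep layer astrocytes. They were 1997 and 3214 in upper and 2136 and 2722 in deep layer non-astrocytes, and 1088 and 1104 in upper and 1028 and 1249 in deep layer bulk tissue. Again no library of 1 fraction reached into the next. Axl averaged 5236 ± 845 in astrocytes (SD, n = 6), against 2517 ± 561 in non-astrocytes and 1117 ± 93.7 in bulk tissue (SD, n = 4 each), which is 2.10-fold (log2 1.07, SE 0.145; limma adjusted p = 9.77e-06) and 4.64-fold higher in astrocytes (log2 2.22, SE 0.145; limma adjusted p = 2.49e-09).

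Tyro3 (ENSMUSG00000027298; chromosome 2, 119797733 to 119818104, plus strand), the TAM receptor known chiefly from neurons in the brain, ran in the opposite order. Its counts were 124, 146 and 153 in upper and 131, 194 and 206 in deep layer astrocytes. They were 441 and 499 in upper and 607 and 820.2 in deep layer non-astrocytes, and 1122 and 1358 in upper and 941 and 1090.1 in deep layer bulk tissue. Every astrocyte library was lowest and every bulk library highest, the order of the summed neuronal markers over the 3 fractions. The sizes differed: against bulk tissue, neuronal markers had median log2 differences of -8.83 in astrocytes and -4.61 in non-astrocytes. Tyro3 had -2.83 and -0.96, and the part of neurons in its values was not tested. Tyro3 averaged 159 ± 33.7 in astrocytes (SD, n = 6), against 592 ± 167 in non-astrocytes and 1128 ± 173 in bulk tissue (SD, n = 4 each). It was 3.66-fold lower in astrocytes than in non-astrocytes (log2 -1.87, SE 0.158; limma adjusted p = 4.86e-08) and 7.11-fold lower than in bulk tissue (log2 -2.83, SE 0.158; limma adjusted p = 3.94e-10). In bulk tissue, fewer cells of a type and less RNA per cell cannot be told apart, here as for every gene below.

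The 3 TAM receptors, 1 kinase family, thus split by fraction, and the 250 bases before their RefSeq starts (GRCm38.p6, read 5′ to 3′ on the gene's strand) are shown with that of Mfge8, the bridging gene that moved with Mertk and Axl. Capitals mark matches on either strand to GGGCGG, the GC box bound by Sp1-type factors, whose matches on the other strand read CCGCCC. The searches for TTGGC (a half-site of the glial NFI factors), AACAAT (a SOX core) and AGGTCA (a half-site of nuclear receptors) found no match in these 4 windows.
Mertk, chr2:128698665-128698914, plus strand: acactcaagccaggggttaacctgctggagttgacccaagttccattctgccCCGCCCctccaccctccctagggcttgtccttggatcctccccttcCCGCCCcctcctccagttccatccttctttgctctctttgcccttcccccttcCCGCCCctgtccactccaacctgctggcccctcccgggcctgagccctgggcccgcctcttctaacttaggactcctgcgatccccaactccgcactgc
Axl, chr7:25788734-25788983, minus strand: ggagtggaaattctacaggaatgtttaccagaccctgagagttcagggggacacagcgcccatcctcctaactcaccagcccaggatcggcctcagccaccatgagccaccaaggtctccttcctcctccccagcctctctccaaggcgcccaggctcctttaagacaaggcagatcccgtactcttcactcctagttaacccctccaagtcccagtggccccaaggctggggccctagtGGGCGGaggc
Tyro3, chr2:119799264-119799513, plus strand: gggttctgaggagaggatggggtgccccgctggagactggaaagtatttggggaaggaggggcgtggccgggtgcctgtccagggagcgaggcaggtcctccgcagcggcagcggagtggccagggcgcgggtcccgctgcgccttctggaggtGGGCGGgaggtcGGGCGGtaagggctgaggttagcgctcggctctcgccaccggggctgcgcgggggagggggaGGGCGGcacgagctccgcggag
Mfge8, chr7:79149061-79149310, minus strand: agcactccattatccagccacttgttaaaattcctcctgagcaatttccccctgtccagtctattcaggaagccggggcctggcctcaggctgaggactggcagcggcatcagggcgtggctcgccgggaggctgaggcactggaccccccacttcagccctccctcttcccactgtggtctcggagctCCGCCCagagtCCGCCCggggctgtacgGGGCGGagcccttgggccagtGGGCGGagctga
The Tyro3 window held 24 CpG dinucleotides at 73.2% G and C, against 7 at 63.6% for Mertk, 5 at 60.0% for Axl and 12 at 65.2% for Mfge8, where the median over all windows was 6 CpG. The RefSeq start of Tyro3 lies inside the gene's longer GENCODE span, so its window does too. The RefSeq starts of Mertk and Axl lie before their GENCODE spans, so their windows end short of the GENCODE starts. The GC box was found 3 times for Mertk, 1 time for Axl, 3 times for Tyro3 and 4 times for Mfge8, so its count did not follow the direction of the gene. A window could be matched for 9 of the 10 genes, and 8 of these held the GC box, which 32.7% of 32851 windows in the table held. GGGCGG itself holds a CpG, and every matched window except that of Axl held more than the median of 6 CpG. The windows of Gas6, Pros1, Gulp1, Itgav and Itgb5 held 10, 15, 12, 18 and 18. The part of CpG content in the share with a GC box was not tested. TTGGC was found for Itgb5 alone among the 9, and in 41.5% of all windows, while AACAAT and AGGTCA were found for none of the 9 and in 9.42% and 14% of all windows. A match is a run of letters in this window, and binding was not measured.

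Of the bridging molecules, Mfge8 rose in astrocytes while both TAM ligands fell against non-astrocytes. Mfge8 (ENSMUSG00000030605; chromosome 7, 79133768 to 79149060, minus strand) encodes the secreted protein that joins phosphatidylserine to alpha V integrins. Its counts were 12693, 18638 and 15571 in upper and 9082, 9757 and 10264 in deep layer astrocytes. They were 1466 and 2844 in upper and 1645 and 2748 in deep layer non-astrocytes, and 1463 and 1294 in upper and 1355 and 1408 in deep layer bulk tissue. Every astrocyte library was far above the rest, and the lowest non-astrocyte library lay just above the highest bulk library. Mfge8 averaged 12668 ± 3773 in astrocytes (SD, n = 6), against 2176 ± 721 in non-astrocytes and 1379.8 ± 72.1 in bulk tissue (SD, n = 4 each). That is 5.87-fold higher than in non-astrocytes (log2 2.55, SE 0.184; limma adjusted p = 7.4e-09) and 8.87-fold higher than in bulk tissue (log2 3.15, SE 0.184; limma adjusted p = 6.4e-10).

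Gas6 (ENSMUSG00000031451; chromosome 8, 13465374 to 13494490, minus strand), the vitamin K-dependent ligand of all 3 TAM receptors, was lowest in astrocytes. Its counts were 816, 984 and 922 in upper and 726, 712 and 658 in deep layer astrocytes. They were 1473 and 2074 in upper and 1585 and 1988 in deep layer non-astrocytes, and 1308 and 1233 in upper and 1378 and 1496 in deep layer bulk tissue. Every astrocyte library lay below the rest, and non-astrocyte and bulk libraries overlapped. Gas6 averaged 803 ± 129 in astrocytes (SD, n = 6), against 1780.0 ± 296 in non-astrocytes and 1354 ± 112 in bulk tissue (SD, n = 4 each). It was 2.21-fold lower in astrocytes than in non-astrocytes (log2 -1.15, SE 0.123; limma adjusted p = 7.48e-07) and 1.70-fold lower than in bulk tissue (log2 -0.76, SE 0.123; limma adjusted p = 5.75e-05). Of its exon bases, 34 overlap Tmem255b, and the use of strand in counting is not given in the sources used here, which leaves a share of its reads uncertain.

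Pros1 (ENSMUSG00000022912; chromosome 16, 62854307 to 62929346, plus strand) encodes Protein S, a blood anticoagulant and the ligand of Tyro3 and Mertk. Its counts were 433, 579.8 and 486 in upper and 405, 559 and 347 in deep layer astrocytes. They were 2550.5 and 3484 in upper and 3023 and 3435 in deep layer non-astrocytes, and 242 and 159 in upper and 257 and 212 in deep layer bulk tissue. All 4 non-astrocyte libraries stood far above the rest, with astrocytes next and bulk tissue lowest, and no ranges overlapped. Pros1 averaged 468 ± 90.6 in astrocytes (SD, n = 6), against 3123 ± 434 in non-astrocytes and 218 ± 43.3 in bulk tissue (SD, n = 4 each). It was 6.71-fold lower in astrocytes than in non-astrocytes (log2 -2.75, SE 0.17; limma adjusted p = 1.24e-09) and 2.14-fold higher than in bulk tissue (log2 1.10, SE 0.17; limma adjusted p = 3.7e-05). Microglial, mural, endothelial, fibroblast, oligodendrocyte precursor and blood marker sums were highest in the same non-astrocyte libraries. Fibroblast sums were 180 to 338 in astrocytes, against 5273 to 12910 in non-astrocytes and 422 to 534 in bulk tissue. Each of these sums was lower in astrocytes than in bulk tissue, and Pros1 was higher. Single markers did not all follow their sum: of the 5 mural markers, 4 were called lower in astrocytes than in bulk tissue and 1 higher, without overlap. The part of these cell types in the Pros1 values was not tested.

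**Figure D2:**
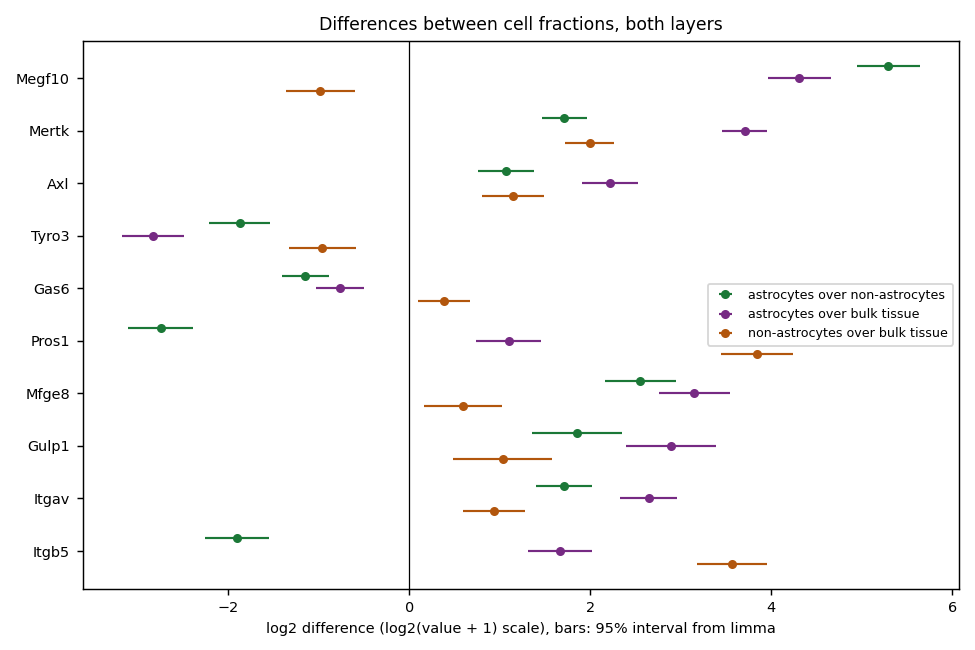
Log2 differences of the 10 genes (points, with 95% intervals) for astrocytes against non-astrocytes, astrocytes against bulk tissue and non-astrocytes against bulk tissue. Megf10 had the largest difference between astrocytes and non-astrocytes at 5.29, and Pros1 and Itgb5 had the largest between non-astrocytes and bulk tissue at 3.85 and 3.57.

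Gulp1 (ENSMUSG00000056870; chromosome 1, 44551511 to 44796838, plus strand), the cytoplasmic adaptor related to worm CED-6 that binds engulfment receptors through its PTB domain, rose in astrocytes with Megf10. Its counts were 420.1, 504 and 652 in upper and 536, 1349 and 558 in deep layer astrocytes. They were 157 and 149 in upper and 194 and 184 in deep layer non-astrocytes, and 72.8 and 73.1 in upper and 106 and 82.2 in deep layer bulk tissue. The ranges of the 3 fractions did not overlap, and deep layer astrocyte replicate 2, at 1349, lay far above the other astrocyte libraries. Gulp1 averaged 669.8 ± 341 in astrocytes (SD, n = 6), against 171 ± 21.5 in non-astrocytes and 83.5 ± 15.5 in bulk tissue (SD, n = 4 each). It was 3.62-fold higher in astrocytes than in non-astrocytes (log2 1.86, SE 0.233; limma adjusted p = 4.18e-06) and 7.41-fold higher than in bulk tissue (log2 2.89, SE 0.233; limma adjusted p = 2.93e-08). Without that library the log2 differences were 1.64 and 2.67, and both calls held.

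The integrin subunits parted. Itgav (ENSMUSG00000027087; chromosome 2, 83724397 to 83806916, plus strand) encodes alpha V, the chain shared by the integrins that bind Mfge8 and vitronectin. Its counts were 16345, 18153 and 17107 in upper and 13597, 22259 and 12357 in deep layer astrocytes. They were 4649 and 4878 in upper and 5619 and 4872 in deep layer non-astrocytes, and 2546 and 2721 in upper and 2717 and 2462 in deep layer bulk tissue. Astrocytes were highest and bulk tissue lowest with no overlap, and the deep layer astrocytes held both the highest and the lowest astrocyte library. Itgav averaged 16636 ± 3515 in astrocytes (SD, n = 6), against 5005 ± 423 in non-astrocytes and 2612 ± 129 in bulk tissue (SD, n = 4 each). It was 3.27-fold higher than in non-astrocytes (log2 1.71, SE 0.146; limma adjusted p = 5.44e-08) and 6.26-fold higher than in bulk tissue (log2 2.65, SE 0.146; limma adjusted p = 3.35e-10). Of its exon bases, 634 overlap the antisense gene Gm13684, so a share of its reads is uncertain.

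Itgb5 (ENSMUSG00000022817; chromosome 16, 33829665 to 33949338, plus strand) encodes beta 5, the partner with which alpha V binds Mfge8 on engulfed material. Its counts were 1509.6, 2307 and 2205 in upper and 1194, 1217 and 1549 in deep layer astrocytes. They were 4930.5 and 7785 in upper and 5160.5 and 6561 in deep layer non-astrocytes, and 609 and 483 in upper and 425 and 524 in deep layer bulk tissue. Non-astrocytes were highest and bulk tissue lowest, with no overlap, so that the 2 subunits of 1 receptor had their highest levels in different fractions. Itgb5 averaged 1664 ± 483 in astrocytes (SD, n = 6), against 6109 ± 1329 in non-astrocytes and 510.3 ± 77.3 in bulk tissue (SD, n = 4 each). It was 3.73-fold lower in astrocytes than in non-astrocytes (log2 -1.90, SE 0.166; limma adjusted p = 7.18e-08) and 3.17-fold higher than in bulk tissue (log2 1.67, SE 0.166; limma adjusted p = 3.41e-07). Microglial, mural, endothelial, fibroblast, oligodendrocyte precursor and blood marker sums were highest in non-astrocytes too. Each of these sums was lower in astrocytes than in bulk tissue, and Itgb5, like Pros1, was higher in astrocytes than in bulk tissue. So was 1 of the 5 mural markers, without overlap, while the other 4 were called lower. The part of these cell types in the Itgb5 values was not tested.

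Across both comparisons, 6 of the 10 genes (Megf10, Mertk, Axl, Mfge8, Gulp1 and Itgav) were called higher in astrocytes than in both other fractions, where 17.4% of tested genes were. The non-astrocytes were also compared with bulk tissue, with 8 of the 10 called higher and 2 lower, where 30.5% of tested genes were called higher and 31.1% lower (61.6% in all). With values scaled to library totals in place of the size factors, the split over all genes was 9019 higher and 5054 lower, against 6885 higher and 7030 lower with the size factors, and the 10 genes kept 8 and 2. The largest were Pros1, 14.4-fold higher in non-astrocytes (log2 3.85, SE 0.186; limma adjusted p = 1.72e-10), and Itgb5, 11.8-fold higher (log2 3.57, SE 0.182; limma adjusted p = 2.98e-10). Mertk was 3.99-fold, Axl 2.22-fold, Gulp1 2.05-fold and Itgav 1.91-fold higher in non-astrocytes, with limma adjusted p of 0.0025 or less. Gas6 (1.30-fold; limma adjusted p = 0.0224) and Mfge8 (1.51-fold; limma adjusted p = 0.0181) were the weakest calls, and both were lost without deep or upper layer non-astrocyte replicate 2, deep layer bulk replicate 1 or upper layer bulk replicate 2 (limma adjusted p 0.0653 to 0.103 for Gas6 and 0.0501 to 0.109 for Mfge8). Megf10 was 1.98-fold and Tyro3 1.94-fold lower in non-astrocytes (limma adjusted p = 0.000197 and 0.000198). Libraries did not overlap for 7 higher genes, Gas6 being the exception, and for both lower genes, where 29% and 29.3% of tested genes did the same.

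Thus 7 of the 10 genes were called higher in both sorted fractions than in bulk tissue: Mertk, Axl, Pros1, Mfge8, Gulp1, Itgav and Itgb5. Over all tested genes 12.5% were. For Mertk, every astrocyte library was at or above 22227 and every non-astrocyte library at or above 6909, against 2065 at most in bulk tissue. Both sorted fractions had been dissociated with papain and sorted, and bulk tissue had not, so sorting and fraction cannot be told apart in comparisons with bulk tissue. Neuronal marker sums were also lower in both sorted fractions, at 258 to 379 in astrocytes and 3281 to 8160 in non-astrocytes, against 98328 to 130731 in bulk tissue.

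**Figure D3:**
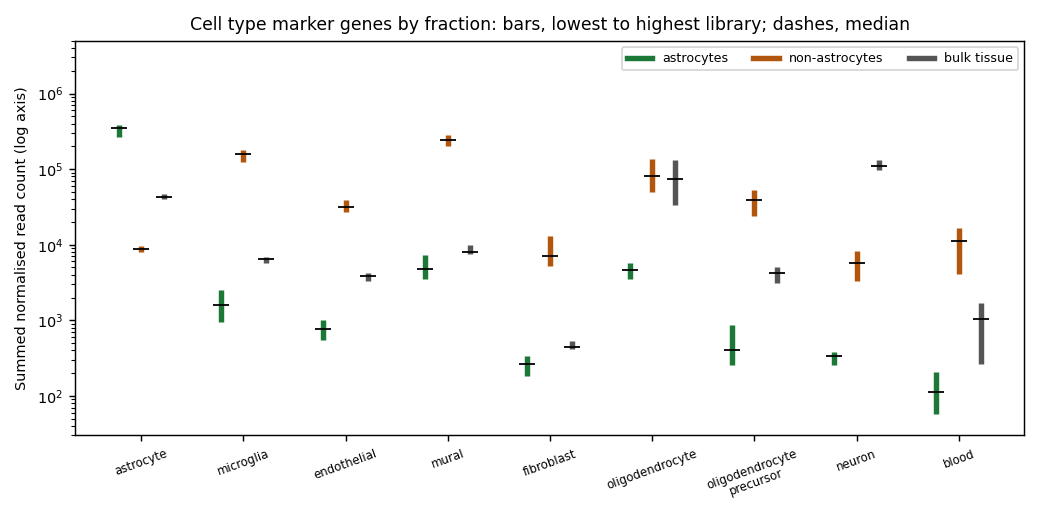
Summed normalised read counts (log10 axis) of the marker lists of each cell type, with bars from the lowest to the highest library and dashes at the median, in astrocytes, non-astrocytes and bulk tissue. Astrocyte markers were highest in astrocytes, microglial and mural markers in non-astrocytes and neuronal markers in bulk tissue.

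Dividing by exon length let the genes be ranked against each other within a fraction. In astrocytes the mean level per kb of exon was 6156 normalised counts for Mertk, 2699 for Mfge8, 1548 for Itgav, 1069.9 for Megf10 and 1040.3 for Axl. It was 468 for Itgb5, 315 for Gas6, 178 for Gulp1, 114.5 for Pros1 and 25.7 for Tyro3. Mertk thus led and Tyro3 was last, so that the TAM receptors spanned the whole list. In non-astrocytes Mertk led again at 1872 per kb, followed by Itgb5 at 1719, Pros1 at 764 and Gas6 at 699, and Megf10 was last at 27.3. In bulk tissue Gas6 led at 531 per kb, followed by Mertk at 467 and Mfge8 at 294, and Gulp1 was last at 22.2.

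The 6 groups, ordered by the mean of each gene, showed where neighbours could be told apart. For Megf10 the upper and deep layers of each fraction overlapped, and the order was astrocytes, bulk tissue and non-astrocytes. Mertk and Mfge8 were highest in upper layer astrocytes, then in deep layer astrocytes, and these neighbours did not overlap. Axl and Itgav ran from astrocytes over non-astrocytes to bulk tissue, with layers that overlapped within each fraction. Pros1 and Itgb5 ran from non-astrocytes over astrocytes to bulk tissue, likewise with layers that overlapped. Tyro3 was highest in upper layer bulk tissue, then in deep layer bulk tissue, deep and upper layer non-astrocytes, each apart from the next, and lowest in astrocytes of both layers, which overlapped. Gas6 ran from deep over upper layer non-astrocytes to deep layer bulk tissue, each overlapping the next, then to upper layer bulk tissue, upper layer astrocytes and deep layer astrocytes, each apart from the next. Gulp1 was highest in the overlapping astrocytes of both layers, then in deep and upper layer non-astrocytes and deep and upper layer bulk tissue, each apart from the next.

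The layer comparison, the question of the study, found none of the 10 genes called in any fraction by limma, edgeR or DESeq2 on the 6 groups without a replicate block. In astrocytes 0.0797% of tested genes were called between layers, 18 in all, and the 10 genes had limma adjusted p from 0.388 to 0.855 (unadjusted p was below 0.05 for Mfge8, Itgb5 and Gas6). Mfge8 averaged 15634 ± 2973 in upper and 9701 ± 593 in deep layer astrocytes (SD, n = 3 each), with no overlap (log2 0.67, 95% interval 0.18 to 1.17; limma adjusted p = 0.388). Itgb5 averaged 2007 ± 434 in upper and 1320.1 ± 199 in deep layer astrocytes (SD, n = 3 each), with libraries that overlapped (log2 0.59, 95% interval 0.14 to 1.04; limma adjusted p = 0.396). Gas6 averaged 908 ± 84.9 in upper and 699 ± 36.0 in deep layer astrocytes (SD, n = 3 each), with no overlap (log2 0.37, 95% interval 0.04 to 0.71; limma adjusted p = 0.442). These intervals lie above 0 but are for single genes, without adjustment over the genes tested.

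Mertk was the other gene whose astrocyte libraries did not overlap between layers, at 29209.7 ± 3817 in upper and 24175 ± 1912 in deep layer astrocytes (SD, n = 3 each; log2 0.27, 95% interval -0.05 to 0.58; limma adjusted p = 0.533). So 3 of 10 genes were separated with the upper layer higher, where 8.7% of tested genes were, and none with it lower, where 7.31% were. The 10 genes were not alone in this. Of 6 astrocyte markers 2 were separated higher, of 11 phagosome and lysosome genes 5 and of 9 genes of eat-me and don't-eat-me signals 3, with none lower. The median log2 layer difference was 0.27 for the astrocyte markers and 0.24 for the 10 genes. Other receptors and integrins, other bridging molecules and signalling genes had none higher, and 1 of 15, 2 of 11 and 2 of 15 lower. Within the 3 same-numbered pairs, the upper layer was higher each time for 6 of the 10 genes (Mertk, Axl, Gas6, Pros1, Mfge8 and Itgb5), where 19.9% of tested genes were, and lower each time for 1 (Tyro3), where 18% were. With these pairs as a block over all libraries, the limma adjusted p was 0.171 for Mfge8, 0.181 for Itgb5 and 0.267 for Gas6. Megf10, the gene with the largest difference between astrocytes and non-astrocytes, gave a log2 layer difference of 0.11 (95% interval -0.32 to 0.55; limma adjusted p = 0.855), so an upper layer excess of up to 0.55 on the log2 scale lies within its interval. Gulp1 gave -0.52 (95% interval -1.14 to 0.11; limma adjusted p = 0.545) and without deep layer astrocyte replicate 2 gave -0.08. Itgav gave 0.15 (limma adjusted p = 0.78), and without that library 0.41. Axl gave 0.30, Pros1 0.21 and Tyro3 -0.30, with limma adjusted p of 0.56, 0.719 and 0.584.

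**Figure D4:**
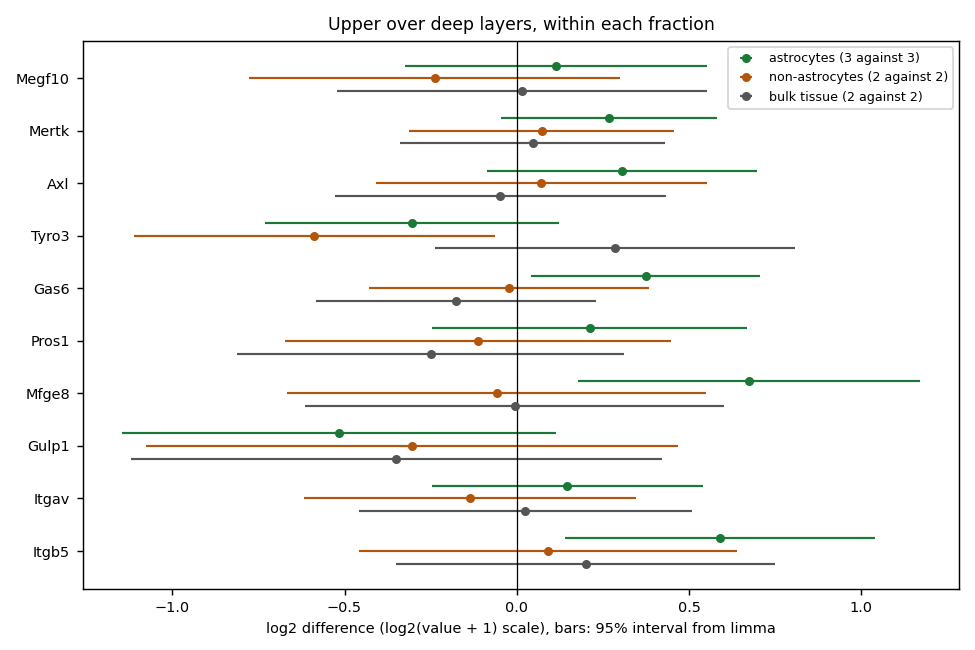
Log2 differences of upper over deep layers for the 10 genes (points, with 95% intervals) in astrocytes, non-astrocytes and bulk tissue. Intervals lie above 0 in astrocytes for Mfge8, Itgb5 and Gas6 and below 0 in non-astrocytes for Tyro3, and no gene was called after adjustment.

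In non-astrocytes 0.00443% of tested genes were called between layers, and in bulk tissue 0.456% were. Among non-astrocytes, Tyro3 averaged 469.9 ± 41.2 in upper and 714 ± 151 in deep layers (SD, n = 2 each), without overlap (log2 -0.59, 95% interval -1.11 to -0.06; limma adjusted p = 1). With same-numbered libraries of non-astrocytes as a block and that fraction fitted alone, Tyro3 was called (limma adjusted p = 0.00912), as were 3.53% of tested genes. With the block over all 14 libraries it was not called (limma adjusted p = 0.518). Oligodendrocyte markers summed to 50294 to 55831 in upper and 104681 to 136358 in deep layer non-astrocytes, with all 5 lower in the upper layers without overlap. Neuronal markers ran the other way, at 6239 to 8160 in upper and 3281 to 5379 in deep layer non-astrocytes, and the part of either in the Tyro3 values was not tested. Gulp1, at -0.30, was likewise separated with the upper layer lower in non-astrocytes, which makes 2 of 10 genes, where 13.7% of tested genes were lower and 11.8% higher without overlap. In bulk tissue, Tyro3 (log2 0.28) and Mertk (0.05) were separated with the upper layer higher, where 22.4% of tested genes were, and Gas6 (-0.18) and Gulp1 (-0.35) with it lower, where 21.3% were. Each had a limma adjusted p of 1, and every 95% interval of the 10 genes in bulk tissue held 0. Unadjusted p was below 0.05 for Tyro3 alone in non-astrocytes and for no gene in bulk tissue. The layer difference of astrocytes minus that of non-astrocytes was called for none of the 10 genes, where 0.00443% of tested genes were called, and none had an unadjusted p below 0.05. Its limma adjusted p ran from 0.799 to 0.946 over the 10 genes, and Mfge8 had the largest difference, 0.73 (95% interval -0.05 to 1.52).

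For each of the 10 genes, the 3 named genes whose log2 levels followed it most closely over the 14 libraries were looked up among 11959 genes with a mean of at least 100. All 14 libraries share the 6 groups, so these values mostly describe which fraction a gene is high in. Megf10 was closest to Gli3 (Pearson r = 0.998), F3 and Usp54, and Mertk to Sat1 (r = 0.996), Notch2 and Akr1b10. Axl was closest to Bicd2 (r = 0.992), Smox and Tmem43, and Tyro3 to Dynll2 (r = 0.987), Anks1b and Gria4. The ligands were closest to unlike genes: Gas6 to Rps14 (r = 0.979), Coro1c and Gpx1, Pros1 to Fzd6 (r = 0.996), Sft2d1 and Ctsa, and Mfge8 to Cdc42ep4 (r = 0.994), Slc38a3 and Chst11. Gulp1 was closest to Usp53 (r = 0.985), Tlr3 and Glt8d1, Itgav to Gna13 (r = 0.996), Soat1 and Stk17b, and Itgb5 to Gper1 (r = 0.991), Abcc4 and Sall1. Among the 10 genes, Itgav and Gulp1 were the closest pair (r = 0.973), followed by Mertk and Axl (r = 0.972), and Mertk and Tyro3 were the most opposed (r = -0.96).

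Genes around the 10 in the pathway were read from 6 lists. In each list, more genes were lower than higher in astrocytes against non-astrocytes, a comparison in which 29.6% of all tested genes were called higher and 36.8% lower. The shares over all tested genes were 28.8% and 36.1% for astrocytes against bulk tissue, and 30.5% and 31.1% for non-astrocytes against bulk tissue. Of 15 other engulfment receptors and integrins, astrocytes had 3 called higher and 9 lower (median log2 -1.30), and against bulk tissue 4 were higher and 7 lower (-0.07). Itgb8, the beta 8 chain that also pairs with alpha V, rose to 7257 ± 2455 in astrocytes (SD, n = 6), against 994 ± 334 in non-astrocytes (SD, n = 4), a log2 difference of 2.88 (limma adjusted p = 1.17e-09). Adgrb1, the phosphatidylserine receptor BAI1, and Itgb6 rose by 1.29 and 0.75, though Adgrb1 was lower than in bulk tissue (log2 -1.48; limma adjusted p = 3.44e-05). Trem2, a lipid receptor of microglia, had 34.1 ± 10.2 counts in astrocytes (SD, n = 6), against 2852 ± 639 in non-astrocytes (SD, n = 4), a log2 difference of -6.37 (limma adjusted p = 5.03e-12). Itgb3, another partner of alpha V, and Itgam, the alpha chain of complement receptor 3, gave -4.36 and -6.65. In bulk tissue Itgb8 had 1509.7 ± 259 and Itgb3 429 ± 328 counts (SD, n = 4 each), and Itgb3 had 54.0 ± 13.5 in astrocytes (SD, n = 6) against 1114 ± 172 in non-astrocytes (SD, n = 4). Among the beta partners of alpha V named here, Itgb8 and Itgb6 were thus higher in astrocytes than in non-astrocytes, and Itgb3 and Itgb5 lower. Of the 15 list genes, 2 were higher and 9 lower without overlap, where 21.7% and 30.1% of tested genes were. Leaving out 1 library gave 2 to 4 called higher and 9 to 10 lower.

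Of 11 other bridging molecules and opsonins, astrocytes had 2 called higher and 8 lower than non-astrocytes (median log2 -1.91). Tulp1, a tubby-like protein reported as a ligand of TAM receptors, rose to 3002 ± 546 in astrocytes (SD, n = 6), against 803 ± 285 in non-astrocytes (SD, n = 4; log2 1.95, limma adjusted p = 1.78e-07), and C4b, a complement component, rose by 1.85. The complement C1q chains, which tag synapses, had the lowest values, with log2 differences of -6.04 for C1qc, -6.85 for C1qb and -7.07 for C1qa. Against bulk tissue 4 of the 11 were higher and 7 lower (median log2 -2.35).

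Of 15 engulfment signalling genes, astrocytes had 5 called higher and 8 lower than non-astrocytes (median log2 -0.62). The ELMO scaffolds, which with Dock1 activate Rac1 for uptake, moved in opposite directions. Elmo2 rose to 7740.5 ± 1267 in astrocytes (SD, n = 6), against 1315 ± 56.7 in non-astrocytes (SD, n = 4; log2 2.54, limma adjusted p = 5.9e-11). Elmo1 fell to 151 ± 36.1 in astrocytes (SD, n = 6), against 10258 ± 661 in non-astrocytes (SD, n = 4; log2 -6.11, limma adjusted p = 1.87e-13). Vav3, a Rac exchange factor, and Abca1, a lipid transporter related to worm CED-7, rose by 2.75 and 1.12, and the exchange factor Trio and the GTPase Rhog fell with log2 differences of -1.34 and -2.36. Against bulk tissue 6 of the 15 were higher and 3 lower (median log2 -0.05).

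Of 5 genes of receptor shedding and vitamin K carboxylation, limma called none higher and 3 lower in astrocytes than in non-astrocytes (median log2 -0.69), where edgeR and DESeq2 each called 1 higher. Ggcx, the vitamin K-dependent carboxylase, was the only one of the 5 higher at an unadjusted p below 0.05 (log2 0.34; limma adjusted p = 0.0518). The 3 lower genes were Adam10 (log2 -1.42) and Adam17 (-0.69), proteases that release the outer part of Mertk and Axl, and Vkorc1 (-1.14), which recycles the vitamin K that Gas6 and Protein S need. Of 9 genes of eat-me and don't-eat-me signals, 2 were called higher, or 1 with values scaled to library totals, and 7 lower (median log2 -1.35). Cd47, the don't-eat-me signal, rose to 9216 ± 3073 in astrocytes (SD, n = 6), against 3291 ± 391 in non-astrocytes (SD, n = 4; log2 1.44, limma adjusted p = 8.04e-06), and the lipid scramblase Xkr8 rose by 0.52, while its relative Xkr4 gave -5.29, the neuronal chemokine Cx3cl1 -4.09 and the scramblase Ano6 -1.38. Of 11 phagosome and lysosome genes, none was called higher by limma, edgeR or DESeq2 or at an unadjusted p below 0.05, and 6 were lower (median log2 -0.33), among them the lysosomal protease gene Ctsd (-2.17) and the lysosomal regulator Tfeb (-1.16). Against bulk tissue the same 11 gave 6 higher and 2 lower (median log2 1.00). The medians of all tested genes were -0.08 and -0.10 in these comparisons. In non-astrocytes against bulk tissue the 6 lists gave 9 higher and 3 lower receptors and integrins (median log2 1.77), 7 and 2 bridging molecules (3.47) and 11 and 2 signalling genes (0.74). They gave 4 and 1 genes of shedding and carboxylation (1.24), 5 and 4 signals (0.47) and 8 and 1 phagosome and lysosome genes (1.53), where the median of all tested genes was -0.04.

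**Figure D5:**
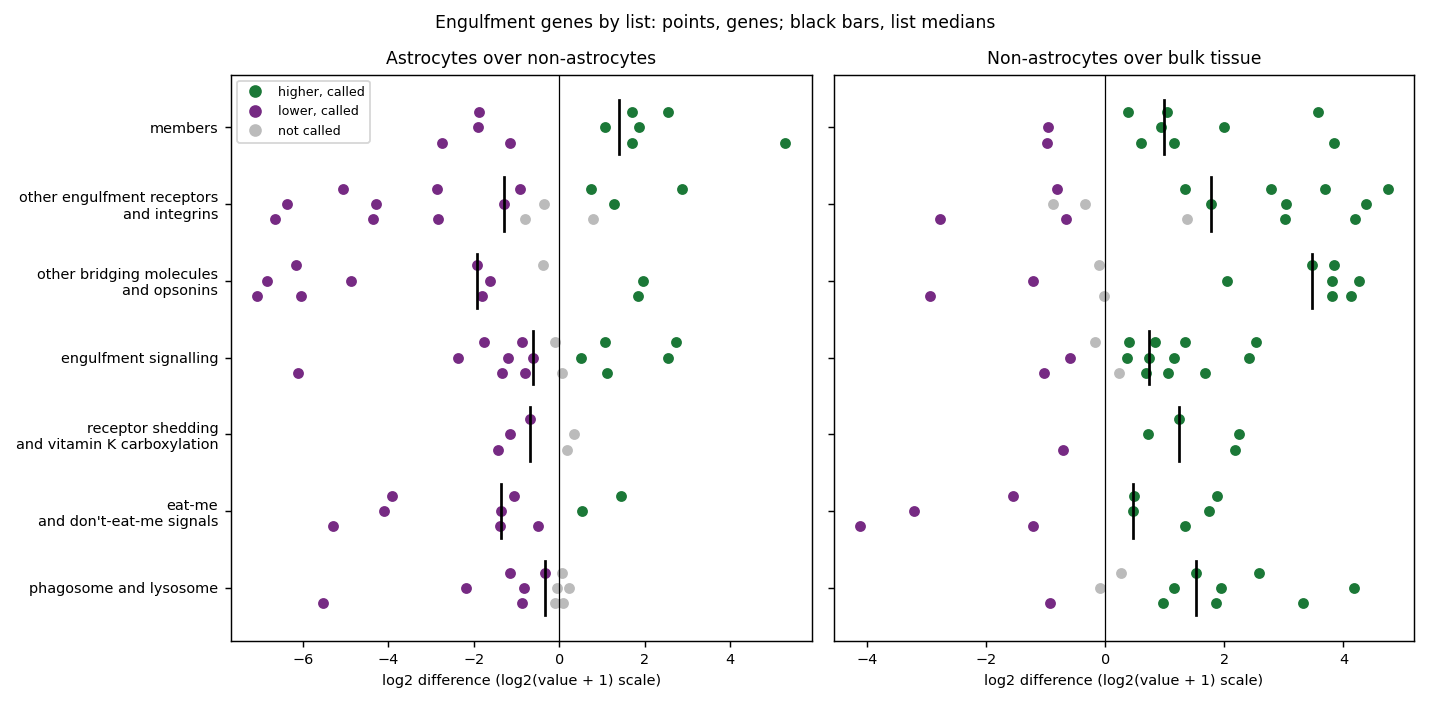
Log2 differences of the genes (points, coloured by call) in the 6 pathway lists and of the 10 genes (top, as members), with black bars at list medians, for astrocytes over non-astrocytes (left) and non-astrocytes over bulk tissue (right). Against non-astrocytes, 6 of the 10 genes were called higher and 4 lower. In each of the 6 lists more genes were lower than higher, as over all tested genes (29.6% called higher and 36.8% lower).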

How the data were processed

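RNA-seq libraries were made from sorted or whole tissue RNA after amplification with the NuGEN V2 system, per the labels' protocols. CASAVA, TopHat2 2.0.11, HTSeq 0.6.1p1, DESeq2 and the GRCm38 build are named in the submitters' processing notes. The deposited values are a signal: gene counts that the authors had divided by 1 size factor per library (0.705 to 1.30). All values were whole multiples of 1 read within 1e-06, and the recovered reads entered edgeR and DESeq2 as alternatives only.

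Of 32830 genes, 22575 with a value of at least 10 in at least 2 libraries were kept. limma 3.58.1 (R 4.3.3, trend and robust moderation) fitted the 6 group means over all 14 libraries on log2(value + 1), which understates changes of low values, and weighed both layers equally. P-values were adjusted over all genes within a comparison. edgeR 4.0.16 and DESeq2 1.42.0 were the other tools, beside other pseudocounts, filters, scalings, sample sets, replicate blocks and leaving out each library. The precision is limited by 2 or 3 libraries a group.

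The genes and lists were chosen with earlier results of these data known. Named were all 10 genes, up to 3 genes per list and direction with the smallest adjusted p for astrocytes against non-astrocytes, and the 3 closest genes by correlation, except 1 list gene that is not reported here. Same-numbered upper and deep layer astrocyte libraries deviated together from their group means (r = 0.203, 0.149 and 0.171, against -0.125 to -0.066 for other numbers). Deviations cancel out within a group, so positive values for the same numbers force negative ones among the others. The numbers were taken as possible pairs, on the evidence of the data and not of the labels. The main fits used no pairing, and blocks by number were alternatives only. For the same numbers the correlation was 0.436 for non-astrocytes and 0.0937 for bulk tissue. With 2 libraries a layer, the value for other numbers is the exact negative of these. The lane of each library is not given in the sources used here, and lanes were not tested. Gene coordinates are from GENCODE M21.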

Additional observations from a re-analysis of the deposited data

Results flagged for a closer look

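Gulp1 had 1349 normalised read counts in deep layer astrocyte replicate 2, whose distance from the other 5 astrocyte libraries passed Dixon's criterion. The other 5 ran from 420.1 to 652. Among 30 sets of a gene and a fraction tested this way it was the only one past the criterion, which chance passes in about 1 of 20. That library also had the highest counts of Megf10 (10204) and Itgav (22259) among astrocytes. Tyro3 moved apart between fractions: its upper over deep layer difference was 0.28 in bulk tissue and -0.59 in non-astrocytes (log2), each with libraries that did not overlap. The difference between these, a test added after seeing the data, was -0.87 for non-astrocytes minus bulk tissue (95% interval -1.61 to -0.13; limma adjusted p = 1, and 0.553 to 1 over the alternatives). Gas6 gave 0.37 in astrocytes and -0.18 in bulk tissue, again without overlap, and the added test gave 0.55 for astrocytes minus bulk tissue (95% interval 0.03 to 1.08; limma adjusted p = 0.599, and 0.397 to 0.981 over the alternatives).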

How the results depend on the processing

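For the 10 genes between fractions, 682 of 690 alternative values kept their direction and side of the threshold. The 8 others were Gas6 and Mfge8 in non-astrocytes against bulk tissue, lost without deep layer non-astrocyte 2, deep layer bulk 1, upper layer non-astrocyte 2 or upper layer bulk 2 (limma adjusted p 0.0653 to 0.103 for Gas6, 0.0501 to 0.109 for Mfge8). Scaling to library totals moved the median of all genes by -0.18, 0.18 and 0.36 (log2) for astrocytes against non-astrocytes, astrocytes against bulk tissue and non-astrocytes against bulk tissue. Genes of eat-me and don't-eat-me signals called higher in astrocytes then were 1 against non-astrocytes and 5 against bulk tissue. Between layers the number of genes called moved most. In astrocytes it was 142 by DESeq2, 1 with only the compared groups, 89 with the replicate block and 0 with that block within the fraction, and 12 to 56 without 1 library. In non-astrocytes it was 138 by DESeq2, 7 by edgeR, 13 without a filter, 0 with only the compared groups, 4 with pseudocount 10, 3 with the replicate block, 798 with it within the fraction, and 0 to 12 without 1 library. In bulk tissue it was 428, 170, 1093 (compared groups), 340 (pseudocount 10), 168 (replicate block), 928 (within the fraction) and 11 to 216. For astrocytes minus non-astrocytes it was 61 by DESeq2, 0 with the compared groups, 3 with the replicate block, 0 with library totals and 0 to 2 without 1 library. The replicate block over all libraries changed no call of the 10 genes, and within the fraction it changed that of Tyro3 in non-astrocytes alone. Layer differences that changed sign were Gas6 (0.0777 by library totals, 0.0014 by edgeR) and Mfge8 (0.0418 by library totals) in non-astrocytes and Megf10 in bulk tissue (-0.00926 by library totals). Without 1 library, the range was -0.0426 to 0.31 for Megf10 and -0.0177 to 0.41 for Itgav in astrocytes. In non-astrocytes it was -0.59 to 0.11 for Megf10, -0.12 to 0.26 for Mertk, -0.27 to 0.41 for Axl, -0.27 to 0.22 for Gas6, -0.34 to 0.11 for Pros1, -0.54 to 0.42 for Mfge8 and -0.24 to 0.42 for Itgb5. In bulk tissue it was -0.17 to 0.20 for Megf10, -0.19 to 0.0924 for Axl, -0.55 to 0.0516 for Pros1, -0.0937 to 0.0827 for Mfge8 and -0.0461 to 0.0963 for Itgav. For astrocytes minus non-astrocytes it was -0.11 to 0.58 for Axl and -0.44 to 0.22 for Gulp1. The cause of these shifts was not tested. The layer comparisons rest on 2 or 3 libraries a side, and a gene that was not called may still differ between layers by any amount inside its interval.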
